A study of Arabidopsis thaliana with 4 samples.

Results

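The large (60S) subunit of the cytosolic ribosome carries the site where amino acids are joined and the tunnel through which the new protein leaves. It is built from ribosomal RNA and from many proteins, most of which Arabidopsis encodes in families of closely related genes (paralogues). The genes described here are 50 of these, the families RPL3 to RPL19 and the stalk protein gene RPP1A, taken by locus from the 27383 single loci of the deposited expression table. Of the 50 genes, 48 had a row of their own, and RPL10aA and RPL11A each shared a row with a neighbouring gene and are given apart. They fall into 20 families, of which 18 had at least 2 paralogues with rows of their own.

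Expression was measured by RNA sequencing in whole *Arabidopsis thaliana* seedlings of 1 genotype, the *daz3 tree1* double mutant (daz3tree1) in the COL background. DAZ3 and TREE1 are zinc-finger proteins, and the labels do not describe the mutant alleles. Seedlings were 3 days old and dark-grown at 24 ºC. The air group received hydrocarbon-free air for 4 hours, and the ethylene group was exposed for 4 hours to such air containing 10 ppm ethylene. Each group had 2 libraries. All 4 libraries carried both mutations, so each difference below is a response within the mutant, and a wild type was not analysed here. The labels do not say whether the libraries came from separate cultures, so the spread behind the p-values may be technical. The deposited table gives 1 value per gene and group, in FPKM (fragments scaled to transcript length and to library size), without a value per library. No SD can be given, and how deeply each library was sequenced is unknown.

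Ribosomal protein genes are among the most strongly expressed genes of growing plant tissue, and in yeast and in plants they are known to be regulated together. In Arabidopsis, many of their promoters hold site II elements, which factors of the TCP family can bind, and telo-boxes, which resemble the telomere repeat. Ethylene is a gaseous hormone under which dark-grown seedlings stay short and thick, and ribosome content is linked to growth in general.

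The promoters were read first, because they are a feature that the choice of genes did not use. Site II elements and telo-boxes were already known from ribosomal protein promoters, so a high share of them here is no new finding. RefSeq gene models on the TAIR10.1 assembly matched all 50 loci, and the 250 bases before each annotated gene start were searched on both strands for the telo-box AAACCCTA and for site II, TGGGCC or TGGGCT. A site II match on one strand can overlap one on the other, and both then count. It can also share an end base with an adjoining telo-box. The 120 bases before the start are printed for the 2 genes whose RNA was lower after ethylene, RPL5A and RPL5B, and for 2 genes that hold both motifs and whose RNA was not called different, RPL13aB and RPL14B. They run 5′ to 3′ on the strand of the gene, and capitals mark the motif matches. The windows lie at chr3:9271466-9271585 (minus strand) for RPL5A, chr5:15903159-15903278 (plus strand) for RPL5B, chr3:9064405-9064524 (plus strand) for RPL13aB and chr4:13595253-13595372 (minus strand) for RPL14B.
RPL5A: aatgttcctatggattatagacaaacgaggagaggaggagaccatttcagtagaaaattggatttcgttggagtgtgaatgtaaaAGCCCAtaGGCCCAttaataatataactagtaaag
RPL5B: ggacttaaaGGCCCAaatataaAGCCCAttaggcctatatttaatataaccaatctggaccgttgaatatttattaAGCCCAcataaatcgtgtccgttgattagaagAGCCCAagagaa
RPL13aB: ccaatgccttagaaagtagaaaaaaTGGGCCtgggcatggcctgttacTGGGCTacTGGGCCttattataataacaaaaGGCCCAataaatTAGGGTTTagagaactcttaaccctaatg
RPL14B: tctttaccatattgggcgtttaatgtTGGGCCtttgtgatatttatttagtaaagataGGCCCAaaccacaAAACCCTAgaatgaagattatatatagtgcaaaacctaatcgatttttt

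RPL5A held 2 site II matches and RPL5B held 4, and neither held a telo-box within the 250 bases. RPL13aB held 4 site II matches and 1 telo-box, and RPL14B held 2 site II matches and 1 telo-box. The printed genes were picked and do not stand for called and uncalled genes in general. RPL19C and RPL6A, next lowest in log2 fold change after the RPL5 genes (-0.39 and -0.38), held both motifs. RPP1A and RPL8A, at 0.34 and 0.32, held site II and no telo-box, as the RPL5 genes did. Among the 50 genes, 39 promoters (78%) held a site II match and 13 (26%) held a telo-box. Among 27431 promoters of all protein-coding genes the shares were 19.2% and 4.49%, so both motifs were several times more frequent before these genes. Among 3112 strongly expressed genes, with at least 50 FPKM in 1 of the groups, the shares were 26.5% and 4.02%, also well below those of the 60S genes. At least 2 site II matches stood before 27 genes (54%, against 12% of all coding genes). Both motifs stood before 11 genes (22%, against 1.36%), and neither motif before 9 (18%, against 77.7%). In the other cytosolic 60S genes site II was present in 65.8% of promoters and the telo-box in 22.8%. In the 40S genes the shares were 65.2% and 13.5%, and in the nuclear genes for plastid 50S proteins they were 25% and 8.33%. RPL13C has no annotated 5′ untranslated region, so its window ends at the coding start, as it does for 14.4% of all coding genes. These are matches of letters, and whether a factor binds them was not tested.

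**Figure D1:**
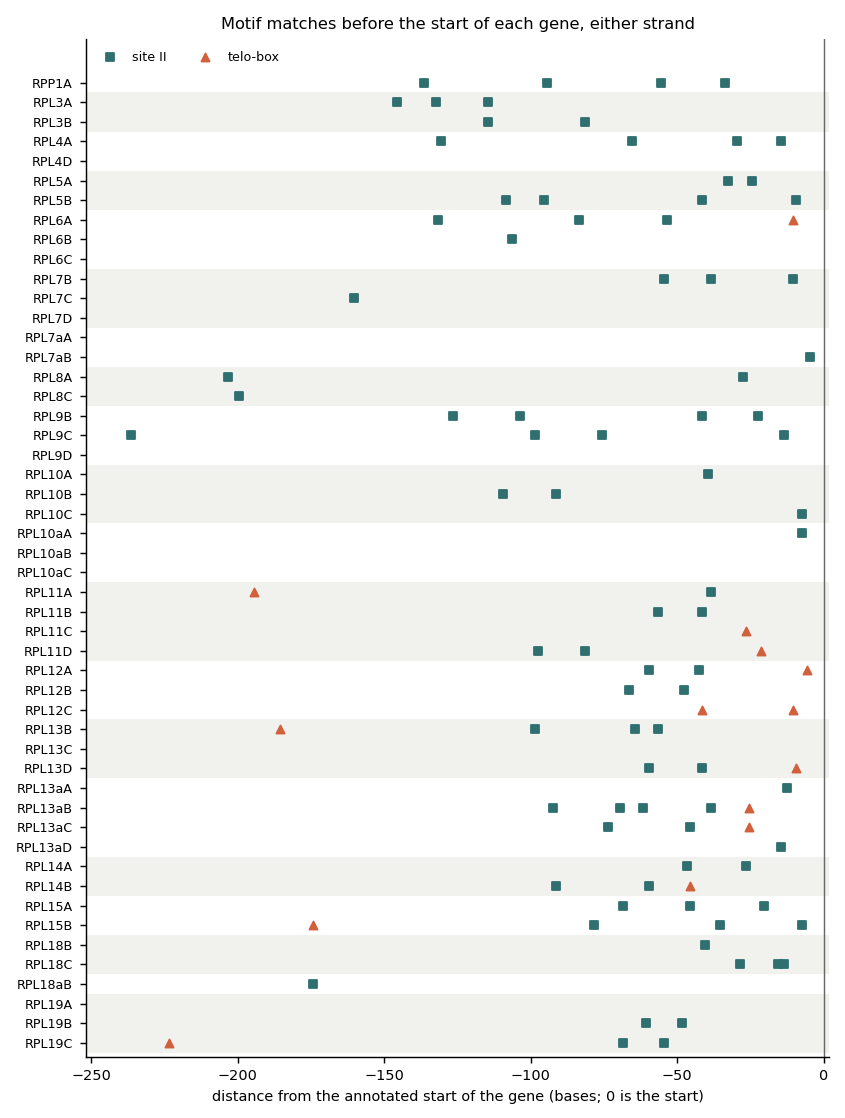
Positions of site II (squares) and telo-box (triangles) matches in the 250 bases before the annotated start of each of the 50 genes; the x axis is the distance from the start in bases. The 2 RPL5 genes, like many of the others, hold site II matches and no telo-box, and 9 genes hold no match of either kind.

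The response to ethylene was set beside the motifs. The median log2 fold change of ethylene over air was 0.05 in the 37 tested genes with a site II match and -0.02 in the 10 without one. It was 0.03 in the 12 with a telo-box and 0.01 in the 35 without. The differences between these medians were not tested.

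In air, the 48 genes with rows of their own summed to 10357 FPKM, and in ethylene to 10699.5 FPKM, a ratio of 1.03. They made up 1.17% of the FPKM of all named rows in air and 1.16% in ethylene. The level of 37 of the 48 genes was at least 100 FPKM in air. RPL14B was the highest in air, at 544 FPKM, followed by RPL10A at 527, RPL8A at 522 and RPL18aB at 444. In ethylene RPL8A was the highest, at 651 FPKM, followed by RPL10A at 647 and RPL14B at 563. The leading genes were thus the same in both groups in another order. The lowest tested genes were RPL10B, with 16.4 FPKM in air and 18.9 in ethylene, RPL3B, with 18.8 and 14.8, and RPL9D, with 21.8 and 30.0. RPL13C was listed at 0.143 FPKM in air and 0.430 in ethylene, and the authors gave it no test. The rank correlation of the levels in air and in ethylene over the 48 genes was 0.976 (Spearman). These are levels per transcript length in seedlings that hold many cell types, and in such samples fewer cells of a type and less RNA per cell cannot be told apart.

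**Figure D2:**
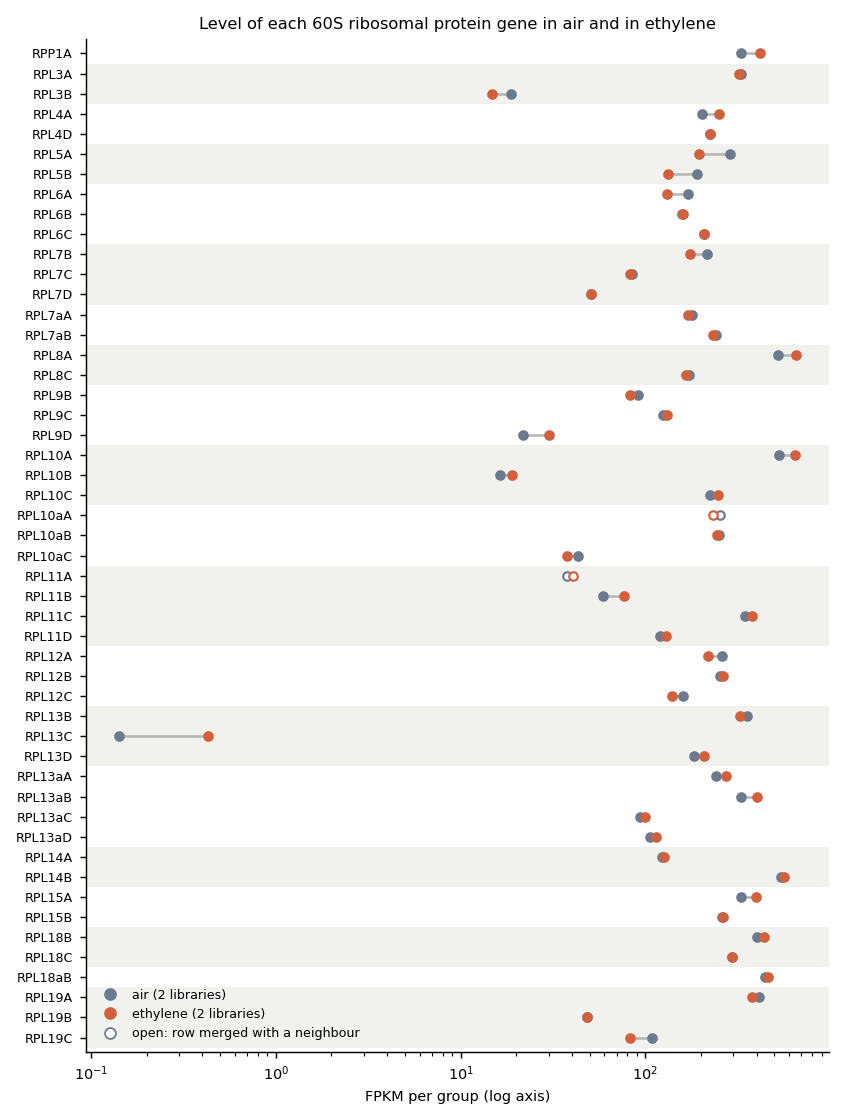
FPKM of each gene in air (grey) and in ethylene (orange) on a log axis, 1 value per group from 2 libraries each; open points are rows shared with a neighbouring gene, and bands separate the families. Most pairs of points lie almost on top of each other between 100 and 651 FPKM, and the 2 RPL5 genes are lower in ethylene.

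Most of these RNAs had about the same level in both groups, within the precision of the data. Of the 47 genes with a test, 0 were called higher and 2 were called lower in ethylene, RPL5A and RPL5B, at 0.05 when the authors' p-values were adjusted by Benjamini-Hochberg over 18696 tested rows. Across all tested rows 2.17% were called higher and 4.18% lower. Among the 3154 tested single-locus rows with at least 50 FPKM in 1 group, 6.31% were called higher and 7.39% lower. The share of these genes called lower, 4.26%, was therefore about that of the whole table and below that of the strongly expressed rows. It is no result about the group. At an unadjusted p under 0.05, 5 of the 47 lay above air (RPP1A, RPL4A, RPL8A, RPL10A and RPL11B) and 5 below (RPL5A, RPL5B, RPL6A, RPL7B and RPL19C), beside 7.74% and 11% of all tested rows. At any p, 25 of 47 genes (53.2%) lay above air, beside 48.0% of all rows and 56.6% of the rows with at least 50 FPKM. The median log2 fold change was 0.01, with quartiles of -0.09 and 0.14. The median of all tested rows was -0.02, and that of the rows with at least 50 FPKM was 0.05.

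The genes also lay close together. The SD of their log2 fold changes was 0.229, against 0.367 among 3154 tested single-locus rows with at least 50 FPKM in 1 group, a spread that was not tested. Those rows had a lower median level in air, 93.6 against 209 FPKM, and a larger median implied standard error, 0.160 against 0.150. The spread is not particular to these genes. The SD was 0.205 in the 40S genes and 0.210 in the plastid 50S genes, and 0.380 in the other cytosolic 60S genes. These lists had no minimum level. The other 60S genes include RPP2C, with 0.315 FPKM in air, 0.958 in ethylene and a log2 fold change of 1.61, which widens their SD. On the deposited scale, no gene of the 47 changed 1.5-fold or more in either direction. On a scale set to reference genes, described below, RPL5A, RPL5B, RPL19C and RPL6A were lower by more than 1.5-fold. Their log2 fold changes there were -0.77, -0.74, -0.60 and -0.59. The 95% interval implied by the deposited p, on the deposited scale, lay within a log2 fold change of -1 to 1 in all 47 genes. It reached from -0.84 for RPL5A at the low end to 0.94 for RPL9D at the high end. It included 0 in 37 genes. A missed threshold does not show that a gene was unaffected, since the implied standard errors, from 0.137 to 0.287, leave room for moderate changes in each gene. Over the 47 genes the log2 fold change had a rank correlation of 0.19 with GC content, -0.26 with transcript length and 0.15 with mean level. These are descriptions over genes that share the same libraries.

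**Figure D3:**
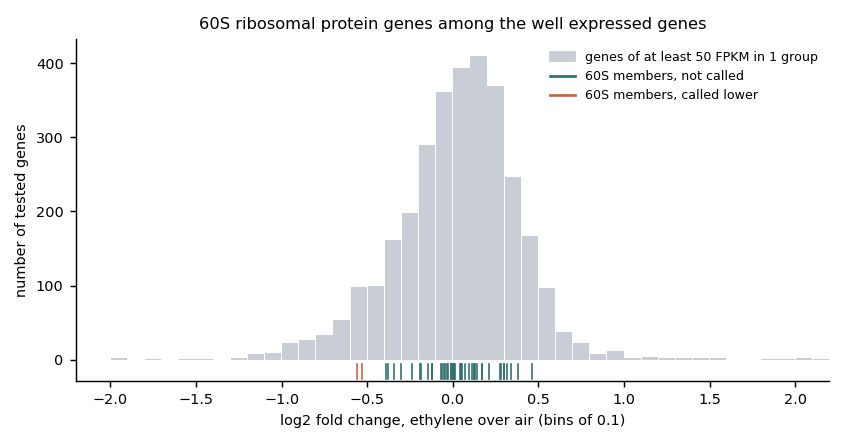
Histogram of log2 fold changes (ethylene over air, bins of 0.1) of the 3154 tested genes with at least 50 FPKM in 1 group, drawn between -2.2 and 2.2; the ticks under it are the 47 tested 60S genes. The ticks gather near the middle of the histogram, and the 2 called lower (orange) are the lowest of them, at -0.56 and -0.53.

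The pair that fell belongs to the 5S particle. RPL5 and RPL11 are the proteins that bind 5S ribosomal RNA and enter the young large subunit with it as 1 particle. RPL5A (AT3G25520, chromosome 3, 9269277 to 9271465, minus strand) fell from 287 FPKM in air to 195 FPKM in ethylene. RPL5B (AT5G39740, chromosome 5, 15903279 to 15905532, plus strand) fell from 191 to 132 FPKM. Both paralogues, each with 7 exons, were thus lower by nearly the same factor, 1.47-fold and 1.44-fold. The log2 fold change of RPL5A was -0.56 (95% interval implied by the deposited p -0.84 to -0.28, adjusted p = 0.00404 by Benjamini-Hochberg on the authors' p). That of RPL5B was -0.53 (-0.83 to -0.22, adjusted p = 0.0164 by Benjamini-Hochberg on the authors' p). RPL5A is also known as PIGGYBACK3 and OLIGOCELLULA5, and RPL5B as OLIGOCELLULA7, after the leaf shape and cell number phenotypes of their mutants. The family summed to 478 FPKM in air and 327 FPKM in ethylene, and RPL5A held 60.1% of it in air and 59.6% in ethylene. The 2 coding sequences are 92.7% identical, with a longest identical run of 44 bases, and neither gene overlaps another. How the authors' counting divided reads that fit both genes was not stated in the labels.

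The partner did not show the same. RPL11C, the main RPL11 gene, had 345 FPKM in air and 378 in ethylene. RPL11D had 119.5 and 130.1, and RPL11B had 58.8 and 76.5 (log2 fold change 0.38, implied 95% interval 0.00 to 0.76, adjusted p = 0.265 by Benjamini-Hochberg on the authors' p). The row that RPL11A shares with AT2G42750 had 37.8 and 40.5 FPKM. All of them lay above air on the deposited scale and none was called, so the RNAs of the 2 proteins of the particle lay on opposite sides of air. On a scale set to reference genes, described below, only RPL11B stayed above air. In yeast, the assembly factors RPF2 and RRS1 carry the 5S particle to the young subunit. Their Arabidopsis counterparts were looked up after the RPL5 values had been seen. RRS1 had 21.8 FPKM in air and 11.3 in ethylene (log2 fold change -0.94, adjusted p = 0.0558), and RPF2 had 15.6 and 11.2 (log2 fold change -0.48, adjusted p = 0.284 by Benjamini-Hochberg on the authors' p). Both lay below air and neither was called on the deposited scale. On the reference gene scale both were called lower, with log2 fold changes of -1.15 and -0.69. RPF2 passed there narrowly (adjusted p = 0.0486 by Benjamini-Hochberg, from a p that rescales the authors' own). In all, 12 of 36 ribosome assembly genes were called lower on that scale, beside 11.8% of all tested rows. On the deposited scale 27 of the 36 lay below air, so the side of RRS1 and RPF2 was that of most of their list.

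Most markers of dividing cells lay below air on the deposited scale, as both RPL5 genes did. The tested genes described here did not lie to that side as a set. Of these 47 genes, 25 lay above air and 22 below, with a median log2 fold change of 0.01. The 10 marker genes summed to 80.8 FPKM in air and 58.8 FPKM in ethylene, with a median log2 fold change of -0.48. Of the 10, 8 lay below air, and 1, the replication helicase gene MCM2, was called lower, from 4.01 to 1.86 FPKM (adjusted p = 0.0467 by Benjamini-Hochberg on the authors' p). The call of MCM2 was lost when values were centred on all tested rows. On the reference gene scale 3 markers were called lower, KNOLLE, MCM2 and RNR1, with a median over the 10 of -0.69. None was at 0 in either group, the lowest value being 0.687 FPKM for the mitotic cyclin CYCB1;1 in ethylene. Their part in the RPL5 values was not tested.

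**Figure D4:**
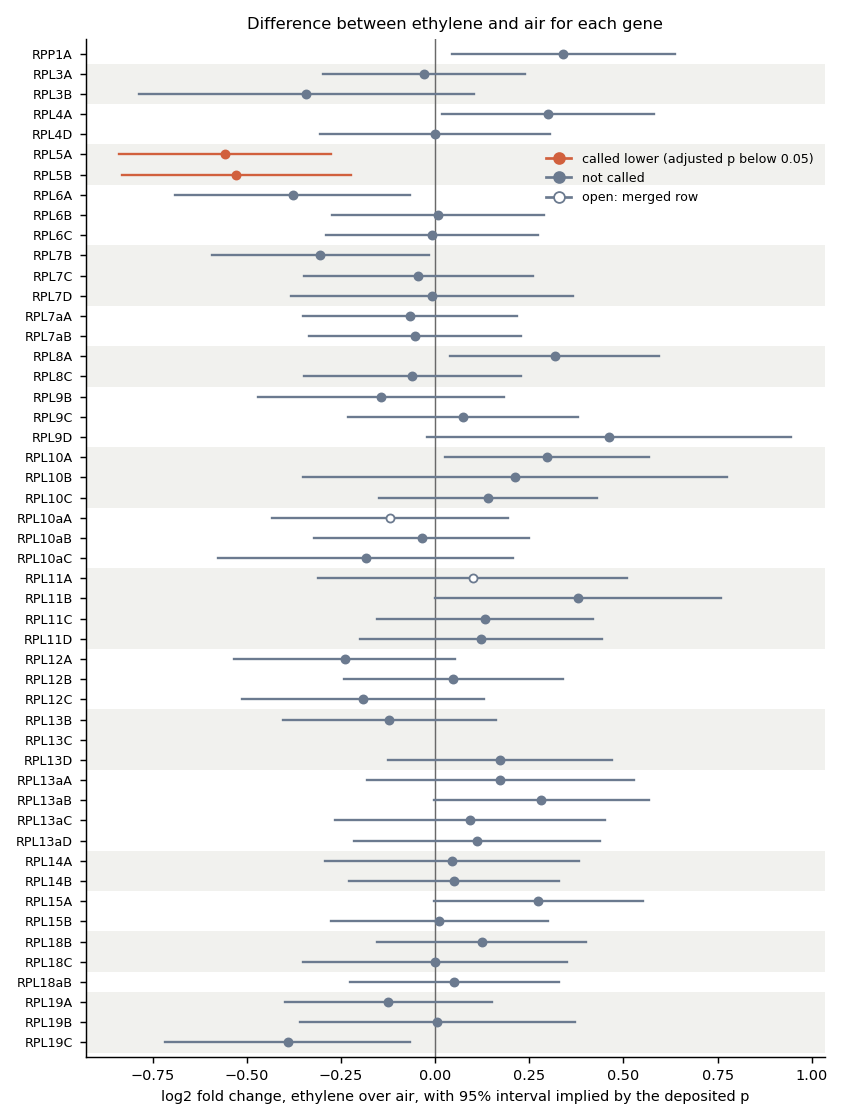
Log2 fold change (ethylene over air) of each gene with the 95% interval implied by the deposited p; orange marks the 2 called lower, open points are rows shared with a neighbour, and RPL13C has no test. The intervals of RPL5A and RPL5B lie wholly below 0, with upper ends at -0.28 and -0.22, and most others cross 0.

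The proteins around the catalytic site and the exit tunnel were next. RPL3, RPL8 (uL2) and RPL10 (uL16) reach towards the site of peptide bond formation, RPL4 lines the tunnel, and RPL15 lies deep in the ribosomal RNA. Their genes included several of those with the highest values in ethylene relative to air. RPL8A had 522 FPKM in air and 651 in ethylene, a log2 fold change of 0.32 (0.04 to 0.59, adjusted p = 0.182 by Benjamini-Hochberg on the authors' p). RPL10A, also known as SAC52, had 527 and 647 FPKM, with 0.30 (0.03 to 0.57, adjusted p = 0.210 by Benjamini-Hochberg on the authors' p). Both implied intervals lay above 0 on the deposited scale and neither gene passed the adjustment. On the reference gene scale the log2 fold changes of RPL8A, RPL10A, RPL4A and RPL15A were 0.11, 0.09, 0.09 and 0.06. RPL4A, whose mutants in Arabidopsis have defects of vacuolar sorting, had 204 and 251 FPKM (adjusted p = 0.230 by Benjamini-Hochberg on the authors' p), while its paralogue RPL4D stayed at 223 FPKM. With the GC trend subtracted, the log2 fold changes of RPL8A, RPL4A and RPL15A were 0.00, 0.01 and 0.09, whereas that of RPL10A was 0.23. RPL15A had 329.9 and 399 FPKM, and RPL15B had 261 and 263. In each of these families the more abundant gene in ethylene was also the one with the larger ratio. RPL8C, at 173 and 166 FPKM, lay on the other side of air from RPL8A. RPL10C had 223 and 246 FPKM. RPL3A, which made up 94.6% of its family in air, had 329 and 323 FPKM. RPL3B was far lower and had the fifth-lowest log2 fold change of the tested genes with rows of their own, -0.34 (-0.79 to 0.10, adjusted p = 0.434 by Benjamini-Hochberg on the authors' p), an interval that includes 0.

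The stalks of the large subunit handle the translation factors and the outgoing transfer RNA. RPP1A encodes an acidic P1 protein of the stalk that recruits elongation factors, and RPL12 (uL11) sits at the base of that stalk. RPP1A (AT1G01100) had 330.1 FPKM in air and 418 in ethylene. Its log2 fold change was 0.34 (0.04 to 0.64), with an unadjusted p of 0.024 and an adjusted p = 0.180 by Benjamini-Hochberg on the authors' p, so it was not called. Of the genes outside the 50, its relative RPP1C was called higher, from 360.2 to 512 FPKM, and so was the plant P3 gene RPP3B, named after its value was seen, from 324 to 459.6 FPKM. Both calls were lost when the values were set to the reference genes, and that of RPP1C also with the GC trend subtracted, whereas RPP3B kept its call there. The log2 fold change of RPP1A was 0.13 on the reference gene scale. RPL12 did not follow: RPL12A had 258 and 219 FPKM, RPL12B 255 and 263, and RPL12C 159 and 139, with no call. The RPL12 genes have a single exon each, whereas the other members have between 2 and 7. RPL10a (uL1) forms the stalk on the opposite flank. RPL10aB, also known as PIGGYBACK1, had 249.7 and 243 FPKM, and RPL10aC 43.0 and 37.8. The row that RPL10aA shares with AT1G08370 had 254 and 234 FPKM. None of the stalk genes among the 50 was called.

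The remaining families encode proteins of the body of the subunit, most of which hold ribosomal RNA in its fold. Among them the lowest values in ethylene relative to air were those of 1 paralogue per family. RPL19C had 109 FPKM in air and 83.0 in ethylene (log2 fold change -0.39, -0.72 to -0.07, adjusted p = 0.151 by Benjamini-Hochberg on the authors' p). RPL19A, the main gene for this protein, which forms a bridge to the small subunit, had 414 and 380.0 FPKM, and RPL19B 48.2 and 48.4. RPL6A had 171 and 132 FPKM (-0.38, -0.69 to -0.07, adjusted p = 0.145 by Benjamini-Hochberg on the authors' p), whereas RPL6B had 159 and 159.7 and RPL6C 209 and 207. RPL7B had 215 and 174 FPKM (adjusted p = 0.233 by Benjamini-Hochberg on the authors' p), while RPL7C had 84.7 and 82.2 and RPL7D 50.9 and 50.6. A further RPL7 gene outside the 50, RPL7A (AT1G80750), named after its value was seen, was called lower, from 26.4 to 12.6 FPKM (log2 fold change -1.07, adjusted p = 0.0229 by Benjamini-Hochberg on the authors' p), and it kept that call on the 3 other scales. The implied intervals of RPL19C, RPL6A and RPL7B lay below 0, and none of the 3 passed the adjustment on the deposited scale. RPL19C was called lower once its GC trend had been taken out (log2 fold change -0.53, adjusted p = 0.0311 by Benjamini-Hochberg, from a p that rescales the authors' own), and RPL6A, RPL7B, RPL19C and RPL12A were called lower on the reference gene scale.

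RPL9D, a minor gene of the RPL9 (uL6) family, had the highest log2 fold change of the tested genes, 0.46 (-0.02 to 0.94, adjusted p = 0.296 by Benjamini-Hochberg on the authors' p), an interval that includes 0. RPL9C, also known as PIGGYBACK2, had 124 and 131 FPKM and RPL9B 91.5 and 82.8. The coding sequences of RPL9B and RPL9C are 99.1% identical and share a run of 458 bases, so how the authors' counting divided reads between them is uncertain. RPL13aB had 329 and 400.0 FPKM, RPL13aA 242 and 272, RPL13aD 106 and 115, and RPL13aC 93.9 and 100.1. All 4 lay above air on the deposited scale with no call, and they lay on both sides of air on the reference gene scale and with the GC trend subtracted. RPL13aC overlaps a gene on the opposite strand over 1376 bases, and no use of strand in the counting is stated in the sources used here. RPL13B had 355 and 326 FPKM and RPL13D 184 and 207. RPL14A had 123 and 127 FPKM, and RPL14B 544 and 563. Both RPL14 genes had nearly the same value in both groups, and so had the following genes. RPL18B had 402 and 437 FPKM, RPL18C had 294 and 294, and RPL18aB 444 and 459.8. RPL7aA had 178 and 170.1 FPKM, and RPL7aB 242 and 233.

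Paralogues of a family code for nearly the same protein, so the families were compared by the share that each gene holds of the summed FPKM. Rows shared with a neighbouring gene were left out. The same paralogue held the largest share in air and in ethylene in 16 of 18 families. The exceptions were RPL4, where RPL4D held 52.3% in air and RPL4A 52.9% in ethylene, and RPL12, where RPL12A held 38.5% in air and RPL12B 42.4% in ethylene. In RPL12 the pair was nearly level in air, where RPL12B held 37.9%. With the merged row counted, RPL10a would be a further exception, since that row had 254 FPKM in air, above RPL10aB, and 234 FPKM in ethylene, below it. The largest move of a share was that of RPL6A, from 31.8% to 26.4% of its family, and only RPL6A, RPL4A and RPL4D moved by more than 5 percentage points. RPL6A overlaps a gene on the opposite strand over 618 bases, and RPL6B overlaps another over 591 bases. The use of strand in the counting is not stated, so reads of those genes may be included. Dominance differed widely between families, from RPL3, where 1 gene made up 94.6% in air, to RPL12, where the highest of 3 genes made up 38.5%. The median share of the leading gene was 60.7%.

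The direction of paralogues was compared next. On the deposited scale all paralogues lay above air in 5 families (RPL10, RPL11, RPL13a, RPL14 and RPL15) and below air in 5 (RPL3, RPL5, RPL7, RPL7a and RPL10a), and 8 were mixed. Some of these directions rest on values close to 0, such as RPL7D at -0.01 and RPL15B at 0.01. How many families would lie on 1 side if paralogues varied independently was not computed. RPL3, RPL5, RPL7a and RPL10a stayed wholly below air under each of the 3 other scalings tried. RPL10, RPL11 and RPL14 stayed wholly above air after centring and with the GC trend subtracted. On the reference gene scale no family lay wholly above air and 11 lay wholly below. Of the sum of squares of the log2 fold changes over 45 genes, 35.2% lay within families, which held 27 of the 44 degrees of freedom (61.4%). Taken over these families together, genes of a family were thus closer to each other than to genes of other families. The RPL5 pair had the lowest values, -0.56 and -0.53, which were 0.03 apart, and so added to the part between families. The share without this pair was not computed. The difference was not tested, nor was the part of reads shared between paralogues in it. The coding sequences of the 44 pairs of paralogues had a median identity of 84.6%, with 1 pair over 95%, and 2 pairs shared an identical run of at least 100 bases, RPL9B with RPL9C and RPL11A with RPL11B. By the gene models, 10 of the 50 genes overlap another protein-coding gene, in each case on the opposite strand.

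The values beside these genes give their setting. On the deposited scale, 2.17% of all tested rows were called higher and 4.18% lower. The other cytosolic 60S genes had 2 called higher and 7 lower of 66 tested, with a median log2 fold change of -0.05, and 27 of 66 lay above air. RPL31C fell from 250.1 to 152 FPKM and RPL28C from 143 to 91.1 FPKM. RPL17 (uL22), a tunnel protein, was another family with both genes called lower: RPL17A fell from 189.7 to 133 FPKM and RPL17B from 533 to 395 FPKM, both named after their values were seen. RPL17B lost its call when values were centred on all tested rows (adjusted p = 0.0613 by Benjamini-Hochberg, from a p that rescales the authors' own). The 40S genes had 1 called higher of 81, RPS16C, from 686 to 964 FPKM, and none lower, with 59 of 81 above air and a median of 0.14. The genes for plastid 50S proteins, which make the ribosome of the chloroplast, had 6 of 20 called lower and none higher, 19 of 20 below air and a median of -0.33. Among them PRPL28 fell from 439 to 281 FPKM. Ribosome assembly factors had 3 of 36 called lower, the nucleolar GTPases NSN1 (13.6 to 6.22 FPKM) and NUG2 (41.9 to 24.4 FPKM) and the pseudouridine synthase CBF5 (21.1 to 13.8 FPKM). Their median was -0.32. On the reference gene scale, 21 of 66 other 60S genes, 13 of 20 plastid 50S genes and 12 of 36 assembly genes were called lower. Of all tested rows, 11.8% were called lower on that scale. The 40S median there was -0.07. On that scale RPS16C was no longer called, and 2 of the 40S genes, RPS6A and RPS24A, were called lower. The differences between these lists were not tested.

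Translation factors lay mostly above air on the deposited scale. Of 19 tested, 3 were called higher and 0 lower, with a median of 0.25: TCTP1 rose from 2791 to 3934 FPKM, EIF4A1 from 243 to 331 FPKM and EF1A from 953 to 1269 FPKM. The TOR kinase, which promotes ribosome formation in response to nutrients, is encoded by TOR, and its RNA rose from 8.76 to 15.2 FPKM. Its partner genes RAPTOR1A and RAPTOR1B rose from 2.53 to 5.07 FPKM and from 21.8 to 30.1 FPKM. Of the other 5 genes of that list, among them the ribosomal S6 kinases and TCP20, which binds site II elements, 0 were called on the deposited scale. TCP20 had 7.69 and 8.66 FPKM. LST8-1, TAP46 and S6K2 lay below air, with log2 fold changes of -0.33, -0.46 and -0.25. LST8-1 and TAP46, named after their values were seen, were called lower on the reference gene scale. Their adjusted p there was 0.0400 and 0.0133 (Benjamini-Hochberg, from a p that rescales the authors' own). On the reference gene scale the median of the translation factors was 0.04, with 0 called higher and 3 lower (EIF4E1, EIFISO4E and EIF3A, named after their values were seen). With the GC trend subtracted it was 0.11, with 1 called higher, TCTP1, and 1 lower, EIF3A. Of the rises named here, TOR alone was still called higher on the reference gene scale, and only TOR and TCTP1 were with the GC trend subtracted.

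**Figure D5:**
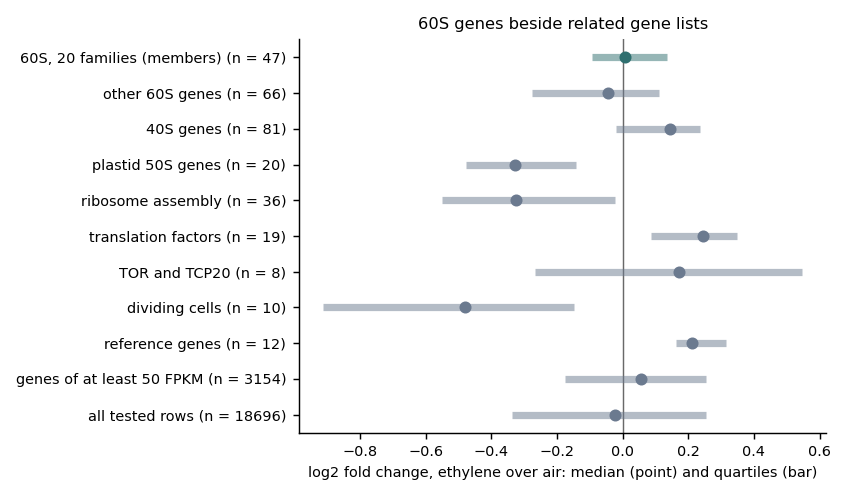
Median (point) and quartiles (bar) of the log2 fold change (ethylene over air) of the tested genes of each list, with the number of genes in brackets. The 60S genes described here lie at 0.01, between the plastid 50S and assembly genes on the left, at -0.33 and -0.32, and the translation factors on the right, at 0.25, on the deposited scale.

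A few facts of the whole table bear on these values. TREE1 was listed at 0 FPKM in air and 0.327 in ethylene and DAZ3 at 0 in both, with no test, and without a wild type here this does not check the labels. Markers of etiolated cotyledon (PORA) and root (PYK10, CASP1 and RHD2) were present in both groups, as in whole dark-grown seedlings. PORA was called lower, from 1873 to 1147 FPKM. The seed storage protein genes CRA1 and CRC were called higher, from 11.8 to 43.6 FPKM and from 1.02 to 5.04 FPKM, and CRC lost its call with the GC trend subtracted. The part of tissue markers in the 60S values was not tested. The 12 reference genes, such as actins and UBQ10, had a median log2 fold change of 0.21, with 11 of 12 above air. When every value was lowered by that amount, the median over all rows with a test went from -0.02 to -0.23 and that of the 60S genes from 0.01 to -0.20, and 9 of 47 lay above air. On that scale 6 of the 47 genes were called lower, beside 11.8% of all rows called lower and 0.808% called higher. RPL5A and RPL5B then had log2 fold changes of -0.77 and -0.74. Relative to the median of all tested rows, the 60S genes stood at 0.03 on either scale, and RPL5A at -0.54.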

How the data were processed

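Seedling RNA was isolated with Trizol and made into libraries with an NEB kit, per the labels' protocols. Reads had gone through TopHat2 2.0.9 and Cuffdiff 2.0.1 on TAIR10, per the submitters' processing notes, but no settings or scaling of libraries are named there. The authors' table holds 1 value per gene and group, taken as FPKM because those notes name Cuffdiff. The deposited log2 fold change compares ethylene with air, per the file headers. It equalled the log2 ratio of the deposited values within 0.001 in 19947 of 19948 rows, while 1186 cells held spreadsheet error text. The table also holds the authors' unadjusted p-value, which is never below 5e-05. Of 32878 rows, 243 without a gene name were left out, and 18696 of 32635 named rows had a p below 1 and were tested. No column of per-library values was used.

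The genes and lists were chosen with earlier results of these data known. All 50 members may be named, with full statistics for called members, the 5 highest and 5 lowest log2 fold changes, and the 5 highest and 3 lowest levels. From each other list up to 3 called genes with the smallest p, then the largest FPKM, were named. The 50 loci all matched RefSeq, and 0 identifiers of the lists were dropped. Benjamini-Hochberg adjustment ran over all tested rows at 0.05. A standard error was implied from each deposited p under a normal approximation and gave the 95% intervals and the p-values after rescaling. It is an upper limit for rows at the smallest p. The calculation was also run on data simulated under the same normal approximation, so that run cannot check the approximation itself. Alternatives were thresholds of 0.01 and 0.1, minimum levels of 1 and 5 FPKM, a pseudocount of 1 FPKM, single-locus rows, rows with a p of 1, merged rows, a scale lowered by the median of 12 reference genes, centring on all tested rows, and subtraction of a GC trend (lowess, fraction 0.3). Benjamini-Yekutieli adjustment was chosen after seeing the data. Promoters (250 bases), overlaps and coding identities came from RefSeq models on TAIR10.1. The tools were Biopython 1.88, matplotlib 3.10.9, statsmodels 0.14.6, scipy 1.17.1, pandas 2.3.3, numpy 2.4.6 and Python 3.11.15.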

Additional observations from a re-analysis of the deposited data

How the results depend on the processing

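The number of 60S genes called higher was 0 under the main setting and under each alternative, and at an unadjusted p under 0.05 it was 5. The number called lower was 2 and stayed at 2 at a threshold of 0.1, with rows under 1 FPKM or rows of several loci left out, with rows of a p of 1 or merged members included, and after centring. It was 1 (RPL5A) at a threshold of 0.01 and 1 under Benjamini-Yekutieli adjustment, 6 on the reference gene scale, and 3 with the GC trend subtracted. RPL5A and RPL5B were called lower on each of the 3 other scales. The median log2 fold change of 0.01 reversed to -0.20 on the reference gene scale and to -0.018 with the GC trend subtracted, and it moved to 0.030 after centring. The number of genes above air, 25, became 9 on the reference gene scale. Over all rows the calls changed from 405 higher and 781 lower to 151 and 2209 on that scale, and to 250 and 869 with the GC trend subtracted. The part of library scaling in this was not tested. The share of promoters with a telo-box rose from 26% to 30% with the core of 7 letters, and the median share of the leading paralogue went from 60.7% to 60.2% when FPKM was multiplied by transcript length. No paired analysis was possible because the deposited columns hold 1 value per group, and no replicate could be left out for the same reason.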
